A study of Homo sapiens with 6 samples.

Results

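AKR1C1, AKR1C2 and AKR1C3 are neighbouring genes for closely related aldo-keto reductases, and they were described here as a group in LY2 cells after CDK12 knockdown. The rule took the rows with these symbols, 3 of the 17939 genes in the table, and the genes were chosen on their siCDK12 against siCtrl values, so that their difference between the groups is given as a description with no test. LY2 is an estrogen receptor-positive breast cancer cell line with resistance to tamoxifen, derived from MCF7. The siCDK12 group received 30 nmol/L of a pool of siRNAs against CDK12, a kinase that acts on elongating RNA polymerase II, and the siCtrl group the same amount of a non-targeting pool. Cells of both groups had been kept on 4-hydroxytamoxifen in medium with charcoal-stripped serum, were moved to medium free of serum and drug before transfection, and were harvested after 48 hours. Each group had 3 libraries, described by the study as biological replicates of this 1 cell line. The comparison asks which transcripts depend on CDK12 in endocrine-resistant cells.

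Aldo-keto reductases use NADPH to reduce carbonyl groups of steroids, prostaglandins and reactive aldehydes, and members of the AKR1C subfamily set how much active steroid hormone a cell holds. AKR1C1 reduces progesterone to a weaker progestin. AKR1C2 inactivates the androgen dihydrotestosterone. AKR1C3 turns weak androgens and estrone into testosterone and estradiol, and is also a prostaglandin F synthase. AKR1C4, the fourth human member, is mainly a liver enzyme. In breast tissue these enzymes are known for local metabolism of progesterone, androgens and estrogens, and as a class they are also known targets of the antioxidant transcription factor NRF2.

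The 3 genes lie side by side on chromosome 10 (GRCh38): AKR1C1 (gene ID 1645) at chr10:4963415-4983283, AKR1C2 (1646) at chr10:4987775-5018000 and AKR1C3 (8644) at chr10:5048781-5107686. The table listed 1 transcript for AKR1C1, 4 for AKR1C2 and 3 for AKR1C3. Because the 3 transcripts moved in the same direction, the 250 bases before each transcription start are shown to set out how alike the copies are at their starts. They come from RefSeq (GRCh38.p14), in 5′ to 3′ direction of the gene, at chr10:4963165-4963414 (plus strand) for AKR1C1, chr10:5003858-5004107 (minus strand) for AKR1C2 and chr10:5094164-5094413 (plus strand) for AKR1C3, which has 2 listed starts. The start used for each gene is that of its MANE Select transcript, the reference transcript chosen for a gene. The windows of AKR1C2 and AKR1C3 therefore lie inside the gene spans given above. The other AKR1C3 start is not shown, and likeness is described for the shown starts alone. Capitals mark the runs of at least 12 bases that all 3 share.
AKR1C1: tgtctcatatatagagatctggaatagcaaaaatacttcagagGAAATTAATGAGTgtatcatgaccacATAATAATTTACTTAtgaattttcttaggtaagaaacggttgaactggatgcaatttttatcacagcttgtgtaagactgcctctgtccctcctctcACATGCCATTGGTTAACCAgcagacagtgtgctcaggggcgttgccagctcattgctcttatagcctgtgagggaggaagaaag
AKR1C2: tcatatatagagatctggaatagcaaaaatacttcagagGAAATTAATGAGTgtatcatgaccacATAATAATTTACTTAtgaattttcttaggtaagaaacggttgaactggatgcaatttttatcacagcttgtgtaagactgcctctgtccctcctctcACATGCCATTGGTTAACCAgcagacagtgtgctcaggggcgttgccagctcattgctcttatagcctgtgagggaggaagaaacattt
AKR1C3: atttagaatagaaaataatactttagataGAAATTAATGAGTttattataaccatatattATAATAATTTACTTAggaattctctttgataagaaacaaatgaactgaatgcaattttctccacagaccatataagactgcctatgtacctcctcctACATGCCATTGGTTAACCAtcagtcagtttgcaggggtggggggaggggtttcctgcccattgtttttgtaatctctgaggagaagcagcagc

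The upstream sequences of AKR1C1 and AKR1C2 were identical at 245 of 246 aligned bases (99.6%), in a single run of 245 bases. AKR1C3 matched AKR1C1 at 74.4% of aligned positions, with a longest common run of 19 bases, and it matched AKR1C2 at the same 74.4%. The shared runs were GAAATTAATGAGT, ATAATAATTTACTTA and ACATGCCATTGGTTAACCA, and the last of them ended 66, 70 and 75 bases before the starts of AKR1C1, AKR1C2 and AKR1C3. On either strand, the CCAAT box (CCAAT) had 1 match in each sequence, which in all 3 is the ATTGG of that last run, and 32.0% of the 35116 RefSeq promoter windows searched over the same length held a match. The core of the antioxidant response element (TGACNNNGC) was in none of the 3 windows and in 10.9% of all windows. The estrogen response element, searched as its full palindrome, was in none of the 3 and in 0.0399% of all windows. A match or its absence describes these 250 letters alone.

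The coding sequences are also close, which bears on how fragments can be assigned. In the GENCODE v44 annotation each has 969 bases, and AKR1C1 and AKR1C2 are identical at 950 of them and differ at 19. AKR1C3 was 91.7% identical to AKR1C1 and 91.2% identical to AKR1C2. Of the 870 windows of 100 bases in each coding sequence, 20.7% in AKR1C1, 26.4% in AKR1C2 and 9.77% in AKR1C3 also occurred unchanged in another gene of the subfamily. Between AKR1C1 and AKR1C2 the shared windows were 18.9%. Fragments from such stretches can be split between the genes by the authors' estimation step, so that the level of each single member is less certain than the sum of the 3.

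CDK12 itself stood at 2.23 to 2.83 FPKM in the siCDK12 libraries and 10.3 to 11.17 FPKM in the siCtrl libraries, which fits the labels. FPKM is the fragment number scaled by the length of the transcript and the size of the library, and its sum ranged between 448633 and 461038 over the 6 libraries. All 10 luminal epithelial markers were detected, while KRT14 and CNN1 (basal), LUM and THY1 (fibroblast), CD3E (leukocyte) and APOB, TTR and AKR1C4 (hepatocyte) were listed at 0 in all 6 libraries. Markers of these lists that passed the filter were ACTA2 and TP63 (basal), COL1A1 (fibroblast), LYZ (leukocyte) and APOA1 and SERPINA1 (hepatocyte). The summed level of the 8 basal markers was 10.5 to 10.9 FPKM with siCDK12 against 10.3 to 11.2 FPKM with siCtrl, mostly ACTA2 (8.59 ± 0.05 against 8.06 ± 0.286 FPKM, SD, n = 3 each), with TP63 at 1.63 ± 0.0557 against 2.05 ± 0.085 FPKM. That of the 8 leukocyte markers was 2.38 to 3.72 against 2.81 to 3.35 FPKM, with LYZ at 1.47 ± 0.65 against 1.34 ± 0.208 FPKM. The 7 fibroblast markers summed to 10.7 to 11.2 FPKM with siCDK12 against 7.78 to 8.64 FPKM with siCtrl, nearly all of it COL1A1. The 9 hepatocyte markers in the table summed to 16.6 to 17.3 FPKM with siCDK12 against 29.9 to 30.5 FPKM with siCtrl, and nearly all of that was SERPINA1, a protease inhibitor that luminal breast cancer cells also express, and which was at 15.2, 14.98 and 15.34 against 27.22, 27.38 and 27.76 FPKM. APOA1 was at 1.37 ± 0.224 with siCDK12 against 2.37 ± 0.341 FPKM with siCtrl (SD, n = 3 each). TP63, APOA1 and SERPINA1 were called lower and COL1A1 higher (limma adjusted p = 0.0355, 0.00299, 4.78e-07 and 0.000269), and the call of TP63 was lost without siCtrl replicate 3 (limma adjusted p = 0.0706). Of the 10 luminal markers, 4 were called higher and 2 lower, where 16.1% of all tested genes rose and 12.3% fell. Those with the smallest p were CDH1 and GATA3, both higher (limma adjusted p = 3.58e-05 and 0.000921), and ESR1, lower and given below. The part of these markers in the values of the AKR1C genes was not tested.

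siCtrl replicate 3 stood apart from the other libraries in the genes described here. In it, 10 genes of at least 0.5 FPKM were at least 2-fold above each of the other 5 libraries, against 1 to 4 such genes in any other library, and AKR1C1 and AKR1C3 were among the 10 together with their relatives AKR1B1 and AKR1B10. This count was made after the values had been seen. Each difference of AKR1C1, AKR1C2 and AKR1C3 between the groups is therefore given with all 6 libraries and again without siCtrl replicate 3, and for other genes the value without it is given where their call was lost. What set this library apart was not tested.

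All 3 reductases were lower in each of the siCDK12 libraries than in all of the siCtrl libraries. AKR1C2 was the most abundant and the most even of them, while AKR1C1 and AKR1C3 were at lower levels with controls that varied widely. In bulk RNA, fewer cells that carry a transcript and less of it per cell cannot be told apart.

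AKR1C1, the progesterone reductase, was at 1.97, 1.25 and 0.96 FPKM after siCDK12, against 3.41, 2.70 and 8.95 FPKM after siCtrl. The groups did not overlap, but the step between the highest siCDK12 library and the lowest siCtrl library was 0.73 FPKM, and siCtrl replicate 3 was 2.93-fold above the mean of the other 2 controls. Means were 1.39 ± 0.52 FPKM with siCDK12 and 5.02 ± 3.42 FPKM with siCtrl (SD, n = 3 each). The log2 difference, on the scale of log2(FPKM + 0.1), was -1.64 (SE 0.366). Without siCtrl replicate 3 the siCtrl mean was 3.06 FPKM and the log2 difference -1.13 (SE 0.233), so that the ratio of siCtrl to siCDK12 means was 3.6 with all libraries and 2.19 without that one.

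AKR1C2, the dihydrotestosterone reductase, was at 8.37, 7.37 and 7.35 FPKM after siCDK12, against 16.07, 14.54 and 18.47 FPKM after siCtrl. Here the libraries of each group lay close together and the groups were 6.17 FPKM apart, with siCtrl replicate 3 only 1.21-fold above the mean of the other controls. Means were 7.7 ± 0.583 FPKM with siCDK12 and 16.4 ± 1.98 FPKM with siCtrl (SD, n = 3 each), a log2 difference of -1.07 (SE 0.0835). Without siCtrl replicate 3 the log2 difference was -0.98 (SE 0.0743). This was the member whose difference depended least on that library.

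AKR1C3, which makes testosterone and estradiol from weaker precursors, was at 1.88, 1.87 and 1.6 FPKM after siCDK12, against 3.78, 3.35 and 7.97 FPKM after siCtrl. The siCDK12 libraries were nearly equal, the groups were 1.47 FPKM apart, and siCtrl replicate 3 was again the high library, 2.24-fold above the mean of the other controls. Means were 1.78 ± 0.159 FPKM with siCDK12 and 5.03 ± 2.55 FPKM with siCtrl (SD, n = 3 each), a log2 difference of -1.34 (SE 0.248). Without siCtrl replicate 3 the siCtrl mean was 3.56 FPKM and the log2 difference -0.96 (SE 0.117). The 3 log2 differences without that library, between -1.13 and -0.96, lay closer together than the 3 with it, between -1.64 and -1.07.

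**Figure D1:**
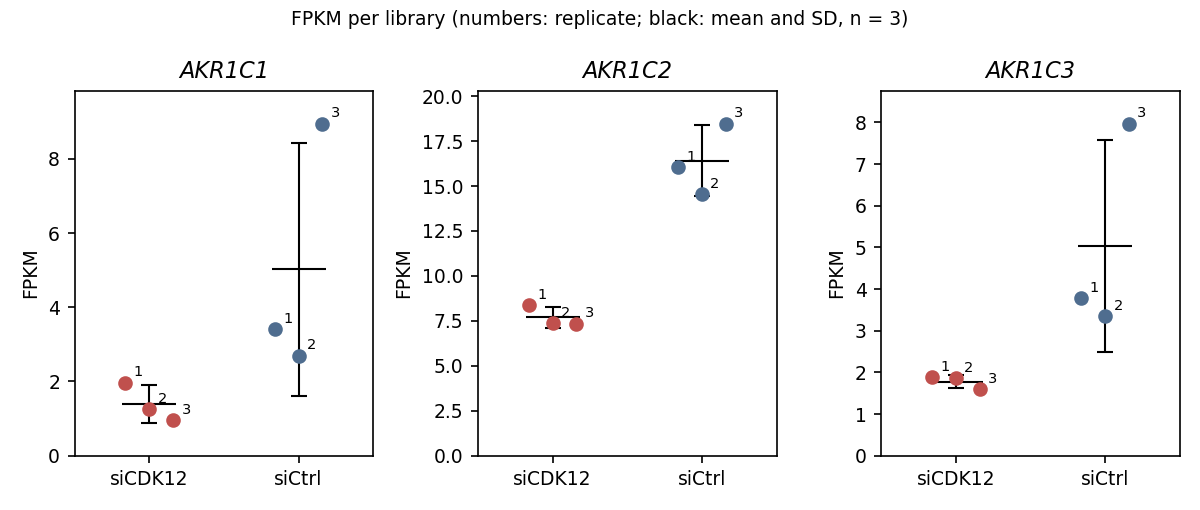
FPKM (vertical axes, each starting at 0) of AKR1C1, AKR1C2 and AKR1C3 in the siCDK12 libraries (left in each panel) and the siCtrl libraries (right), with the replicate number beside each point and the mean ± SD of 3 libraries in black. In each panel all siCDK12 points lie below all siCtrl points, and siCtrl replicate 3 lies far above the other controls for AKR1C1 (8.95 FPKM) and AKR1C3 (7.97 FPKM) but not for AKR1C2 (18.47 FPKM).

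Groups that do not overlap, with siCDK12 lower, occurred in 17.8% of the 11533 genes tested, and the members were chosen for this contrast, so their 3 of 3 is a description. In the order of log2 differences, counted from the lowest of the 11533 tested genes, AKR1C1 was at position 5, AKR1C3 at 9 and AKR1C2 at 24. Without siCtrl replicate 3, when 11538 genes passed the filter, they were at positions 19, 33 and 31. The ratio of the lowest siCtrl library to the highest siCDK12 library was 1.37 for AKR1C1, 1.74 for AKR1C2 and 1.78 for AKR1C3.

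AKR1C2 had the highest level per length in all 6 libraries. AKR1C1 and AKR1C3 did not keep an order between them: AKR1C1 was the higher of the pair in siCDK12 replicate 1 and siCtrl replicate 3, and AKR1C3 in the other 4 libraries, so that these neighbours in the order do not differ beyond their spread. All 3 are of modest abundance in LY2 cells. With siCDK12 the median tested gene stood at 13 FPKM, and 7515 of the 11533 tested genes had a higher mean than AKR1C2, 10751 than AKR1C3 and 11105 than AKR1C1. With siCtrl the median tested gene stood at 12.7 FPKM, and 4929 genes had a higher mean than AKR1C2, 8650 than AKR1C3 and 8658 than AKR1C1.

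The summed level of the 3 genes depends less on how fragments of the common stretches are split between them. The sum was 12.22, 10.49 and 9.91 FPKM after siCDK12, against 23.26, 20.59 and 35.39 FPKM after siCtrl. It was lower in each of the siCDK12 libraries than in all of the siCtrl libraries, with means of 10.9 ± 1.2 FPKM and 26.4 ± 7.89 FPKM (SD, n = 3 each). The difference of the log2 sums was -1.25 with all libraries and -1.01 without siCtrl replicate 3, whose removal left a siCtrl mean of 21.9 FPKM.

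The composition of the sum was similar in 5 of the 6 libraries. AKR1C2 made up 68.5%, 70.3% and 74.2% of it in the siCDK12 libraries, against 69.1%, 70.6% and 52.2% in the siCtrl libraries. AKR1C1 made up 16.1%, 11.9% and 9.69% with siCDK12, against 14.7%, 13.1% and 25.3% with siCtrl. AKR1C3 made up 15.4%, 17.8% and 16.1% with siCDK12, against 16.3%, 16.3% and 22.5% with siCtrl. Only siCtrl replicate 3 departed from this pattern: set against the mean of the other 2 controls it held 5.89 FPKM more AKR1C1, 4.4 FPKM more AKR1C3 and 3.16 FPKM more AKR1C2. In FPKM the largest surplus was thus in AKR1C1 and the smallest in AKR1C2, the member with the highest level.

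**Figure D2:**
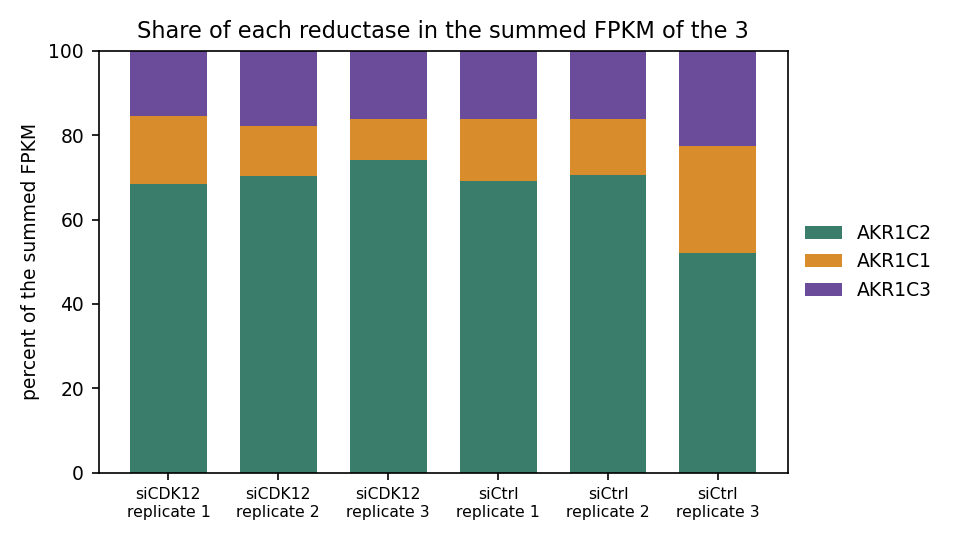
Percent of the summed FPKM of the 3 genes (vertical axis) held by AKR1C2 (bottom), AKR1C1 (middle) and AKR1C3 (top) in each library, siCDK12 on the left and siCtrl on the right. AKR1C2 holds between 68.5% and 74.2% in all libraries but siCtrl replicate 3, where it holds 52.2%.

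The variation of the controls was known when the genes were chosen, and siCtrl replicate 3 adds both to it and to the difference between the groups, so that the spread is given as a description as well. Among the siCtrl libraries the SD of log2(FPKM + 0.1) was 0.90 for AKR1C1 and 0.66 for AKR1C3, where the median tested gene had 0.06. Of the 11533 tested genes, 10 had a larger SD than AKR1C1 and 15 a larger SD than AKR1C3, and among the 1000 genes nearest to each in level these numbers were 0 and 1. AKR1C2, with an SD of 0.17, was exceeded by 911 genes, and by 19 of its 1000 nearest in level.

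In the siCDK12 libraries the pattern was different. AKR1C1 again varied widely, with an SD of 0.49 that 42 tested genes exceeded (24 of 1000 of like level), its replicate 1 being 2.05-fold above its replicate 3. AKR1C3 had an SD of 0.12, exceeded by 480 of the 1000 genes of like level, and AKR1C2 had 0.11, exceeded by 213 of 1000. The wide spread of AKR1C3 was seen in siCtrl, where replicate 3 was the distant library. Between siCtrl replicates 1 and 2 alone, AKR1C1 differed by 0.33 on the log2 scale, a gap larger than in all but 448 of the tested genes, AKR1C3 by 0.17 (1879 genes had a larger gap) and AKR1C2 by 0.14 (2502 genes).

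**Figure D3:**
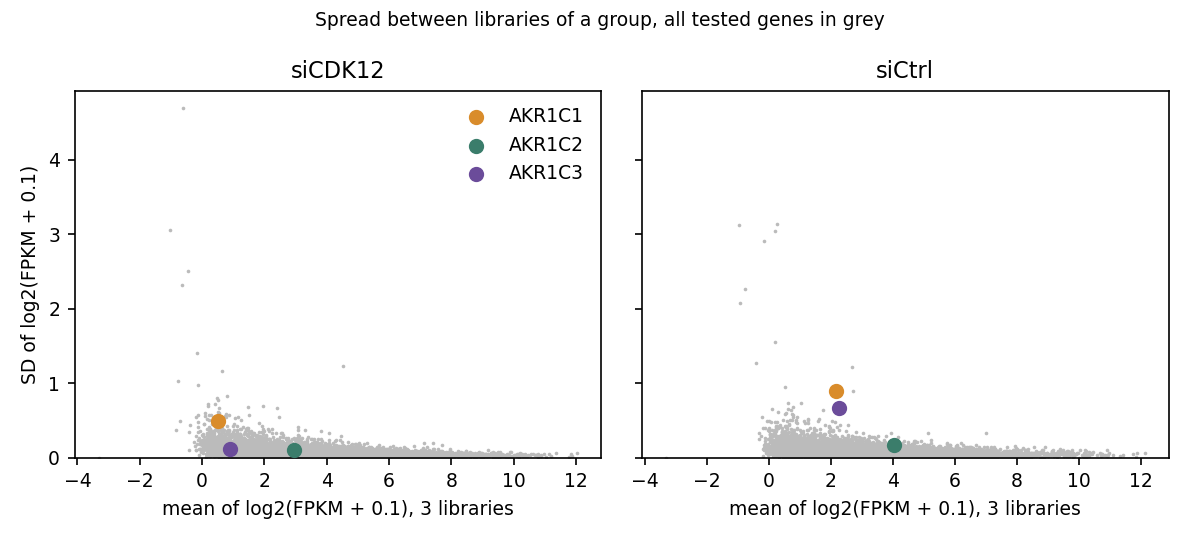
SD of log2(FPKM + 0.1) over the 3 libraries of a group (vertical axes) against the mean of log2(FPKM + 0.1) (horizontal axes), siCDK12 on the left and siCtrl on the right, for all tested genes (grey) and the 3 reductases (coloured). AKR1C1 and AKR1C3 lie above nearly all genes of their level in siCtrl (SD 0.90 and 0.66), whereas in siCDK12 only AKR1C1 (0.49) does.

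Profiles over the 6 libraries were compared by the root mean square distance of log2(FPKM + 0.1) after centring each gene on its mean. The nearest profile to AKR1C1 among all tested genes was AKR1C3 (distance 0.30 on the log2 scale), followed by PLA2G4B (0.48), FCGR2C (0.53), TMEM110-MUSTN1 (0.54) and AKR1C2 (0.56). The nearest to AKR1C3 were AKR1C1 (0.30), AKR1C2 (0.33), C12orf56 (0.37), PLA2G4B (0.38) and S100P (0.38). For AKR1C2 they were other genes, HEY2 (0.10), IQCK (0.12), IGSF3 (0.13), CDC42EP2 (0.13) and UMODL1 (0.13), with AKR1C3 at position 231 and AKR1C1 at 4879. These distances include the difference between the groups that chose the members. They also share the libraries, and AKR1C fragments can be exchanged between the genes.

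With the group means subtracted, so that only the variation inside the groups was left, AKR1C3 was again the nearest profile to AKR1C1 (0.27), with PLA2G4B next (0.28), then KRTAP4-1 (0.38), MSMB (0.39) and CSKMT (0.39). The reverse did not hold. SMIM1 (0.19), KRT7 (0.20), UBE2W (0.21), SPDYE11 (0.21) and FGF18 (0.21) were nearest to AKR1C3, with AKR1C1 at position 37. AKR1C2 had ARL6, GFI1, FBXL4 and MGST2 (each 0.03) and NIT2 (0.04) nearest, and AKR1C1 and AKR1C3 were among its most distant genes, at positions 11506 and 11392. Counted from the other members, AKR1C2 was at position 77 for AKR1C1 and 100 for AKR1C3. This distance depends on the size of the variation as well as on its pattern, and AKR1C2 varied least of the 3. All 3 members had their highest siCtrl value in replicate 3, at 1.02 (AKR1C1), 0.76 (AKR1C3) and 0.18 (AKR1C2) above the siCtrl mean on the log2 scale. Their lowest siCtrl value was in replicate 2, at -0.67, -0.47 and -0.16. How many of all tested genes had this order was not counted, and fragments can be exchanged between the members, so that the order is a description.

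Most other genes of the family were below the filter in these cells, but AKR1A1 and AKR7A2 were at higher levels per length than AKR1C2. AKR1C4, the liver member of the cluster, was listed at 0 in all 6 libraries. Of the 13 relatives in the table, which include the potassium channel beta subunits of the same fold, 4 passed the filter of a mean of 1 FPKM, and 2 of these fell and 0 rose at an adjusted p under 0.05 (limma, Benjamini-Hochberg over all tested genes). Over all tested genes 12.3% fell and 16.1% rose, 1416 and 1853 genes, a split that median-ratio scaling of the libraries turned to 1672 lower and 1377 higher. KCNAB2, a channel beta subunit, fell to 5.72 ± 0.493 FPKM with siCDK12, against 7.17 ± 0.386 FPKM with siCtrl (SD, n = 3 each; log2 difference -0.32, SE 0.0743, limma adjusted p = 0.00872). AKR1A1, the aldehyde reductase, fell to 20.1 ± 1.08 FPKM, against 22.4 ± 0.895 FPKM with siCtrl (log2 difference -0.16, limma adjusted p = 0.0399), and its call was lost without siCtrl replicate 3 (limma adjusted p = 0.068), which left 1 relative called.

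AKR7A2, a succinic semialdehyde reductase, had a log2 difference of -0.04 (limma adjusted p = 0.6), and AKR1E2 one of 0.05 (limma adjusted p = 0.634). Neither passed the test. AKR1B10, an aldo-keto reductase for retinal and aldehydes, was below the filter at 0.08, 0.24 and 0.47 FPKM after siCDK12, against 0.31, 0.20 and 1.47 FPKM after siCtrl. AKR1B1, aldose reductase, was at 0.05, 0.05 and 0.18 FPKM after siCDK12, against 0.09, 0.14 and 0.76 FPKM after siCtrl. Both overlapped between the groups, and both were highest in siCtrl replicate 3, as AKR1C1, AKR1C2 and AKR1C3 were.

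Within 1000000 bases of the cluster, 14 other genes were in the table and 9 were tested, of which 1 fell and 0 rose, where 12.3% of all tested genes fell and 16.1% rose, so that the share that fell is near the background. Their median log2 difference was -0.05, against 0.03 over all tested genes. ASB13, a subunit of ubiquitin ligases 675 kb from the lower end of AKR1C1, was the called gene, at 20.4 ± 0.252 FPKM with siCDK12 and 24.3 ± 1.38 FPKM with siCtrl (SD, n = 3 each; log2 difference -0.25, limma adjusted p = 0.00322). NET1, the nearest tested gene on the AKR1C3 side at 449 kb, was at 22.9 ± 1.07 against 24.6 ± 1.53 FPKM (log2 difference -0.10, limma adjusted p = 0.173). AKR1E2, the nearest tested gene on the AKR1C1 side, is given above.

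**Figure D4:**
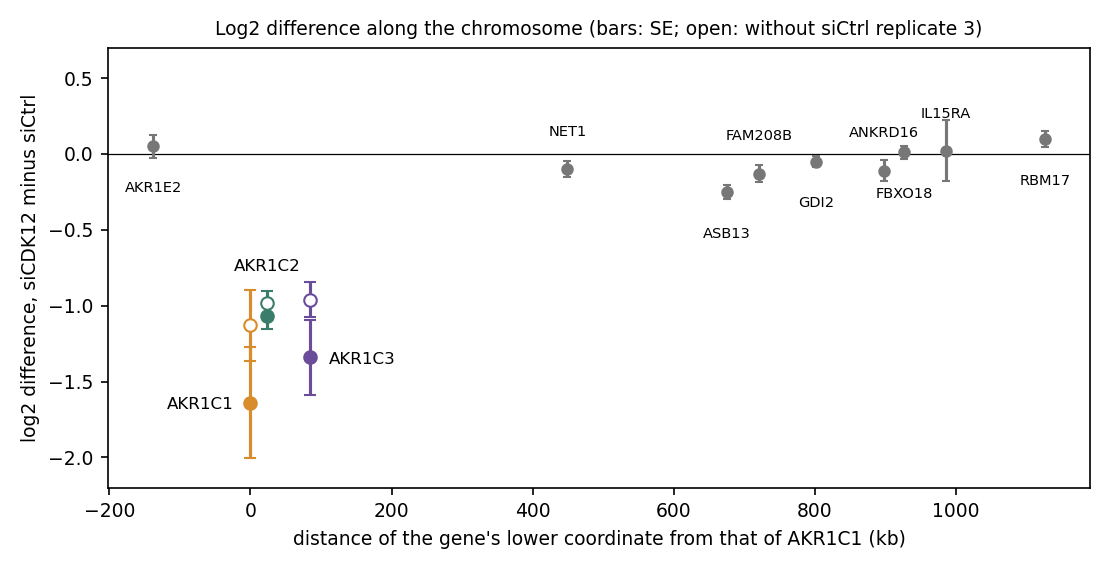
Log2 difference of siCDK12 minus siCtrl (vertical axis, bars are SE) against the distance in kb from the lower end of AKR1C1 (horizontal axis), for the 3 reductases with all libraries (filled) and without siCtrl replicate 3 (open) and for the 9 tested neighbours (grey). The neighbours lie between -0.25 and 0.10, and the 3 reductases between -1.64 and -1.07 with all libraries.

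Among the tested genes of the steroid pathway around the AKR1C enzymes, some rose and some fell. Of 28 other steroid dehydrogenases and reductases in the table, 17 were tested, 5 rose and 2 fell, with a median log2 difference of 0.06. As the background of this and the other lists, 16.1% of all tested genes rose and 12.3% fell. HSD3B7, which oxidizes sterols on the way to bile acids, rose to 41.5 ± 2.13 FPKM with siCDK12, against 35.8 ± 0.459 FPKM with siCtrl (log2 difference 0.21, limma adjusted p = 0.00462). HSD17B6, which can oxidize the product of AKR1C2 back to dihydrotestosterone, rose to 2.1 ± 0.0656 FPKM, against 1.53 ± 0.147 FPKM with siCtrl (log2 difference 0.44, limma adjusted p = 0.0128). HSD11B1L rose to 1.26 ± 0.13 FPKM, against 0.803 ± 0.085 FPKM with siCtrl (log2 difference 0.59, limma adjusted p = 0.0133). Its siCtrl mean lay below the filter of 1 FPKM, so that it was tested only through its higher siCDK12 values. It fell out of the test without siCDK12 replicate 1 and without siCDK12 replicate 3. HSD17B1, which like AKR1C3 makes estradiol from estrone, had a log2 difference of 0.07 and did not pass the test (limma adjusted p = 0.436), and is named for this shared reaction after its value was seen.

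Of 21 genes of steroid synthesis and hydroxylation, 8 were tested, 3 rose and 1 fell, where 16.1% of all tested genes rose and 12.3% fell. CYP1A1, a hydroxylase of estradiol, rose to 2.38 ± 0.0289 FPKM with siCDK12, against 1.08 ± 0.101 FPKM with siCtrl (SD, n = 3 each; log2 difference 1.08, SE 0.111, limma adjusted p = 7.43e-05). FDXR, the reductase that feeds electrons to mitochondrial P450 enzymes, rose with a log2 difference of 0.23 (limma adjusted p = 0.00378). TSPO, a mitochondrial cholesterol-binding protein, fell (log2 difference -0.19, limma adjusted p = 0.021), a call lost without siCtrl replicate 3 (limma adjusted p = 0.0627), when 2 of these genes rose and 0 fell. Of 27 genes of steroid conjugation and deconjugation, 13 were tested, 3 rose and 5 fell, beside the same 16.1% and 12.3% of all tested genes. UGT1A6, a glucuronosyltransferase, and SUMF1, which activates sulfatases, each rose with a log2 difference of 0.26 (limma adjusted p = 0.00151 and 0.00197). SLC35B2, which carries the sulfate donor into the Golgi, fell (log2 difference -0.22, limma adjusted p = 0.00178).

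Of the 6 steroid receptors in the table, 3 were tested, 1 fell and 0 rose, where 12.3% of all tested genes fell and 16.1% rose. ESR1, the receptor for the estradiol that AKR1C3 helps to make, fell to 40.4 ± 1.29 FPKM with siCDK12, against 50.9 ± 1.58 FPKM with siCtrl (SD, n = 3 each; log2 difference -0.33, limma adjusted p = 0.000187). Its groups did not overlap and its 3 control libraries were within 3 FPKM of each other, unlike those of AKR1C1 and AKR1C3.

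In the prostaglandin pathway, where AKR1C3 makes prostaglandin F, 30 genes were in the table and 16 were tested. Of the tested genes 4 fell and 2 rose (median log2 difference -0.05), or 4 and 1 without siCtrl replicate 3. With all libraries, 12.3% of all tested genes fell and 16.1% rose. HPGD, the dehydrogenase that inactivates prostaglandins, fell to 7.13 ± 0.23 FPKM with siCDK12, against 11.5 ± 0.28 FPKM with siCtrl (SD, n = 3 each; log2 difference -0.68, limma adjusted p = 1.28e-05). PTGES, a prostaglandin E synthase, fell to 16.7 ± 0.452 FPKM, against 24.0 ± 0.44 FPKM with siCtrl (log2 difference -0.52, limma adjusted p = 1.76e-05). PTGR1, a prostaglandin reductase, was at 1.59, 1.24 and 1.18 FPKM after siCDK12, against 2.7, 3.25 and 2.94 FPKM after siCtrl. Its log2 difference of -1.10 (SE 0.127, limma adjusted p = 0.000147) was of the size of that of AKR1C2, and its controls lay close together.

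AKR1C1, AKR1C2 and AKR1C3 are usually assigned to the NRF2 pathway genes and were left out of that list here. Of its 50 genes, 42 were tested, 13 fell and 3 rose (median log2 difference -0.03). Over all tested genes 12.3% fell and 16.1% rose. The list thus had a larger share that fell and a smaller share that rose, a description with no set test. Among those that fell were PTGR1, given above, and PIR, an iron-binding nuclear protein (log2 difference -0.47, limma adjusted p = 0.000168). UGT1A6, also given above, was among those that rose. The other 26 tested genes were not called. They included NFE2L2, the gene for NRF2 itself (log2 difference 0.02, limma adjusted p = 0.736), NQO1 (-0.09, limma adjusted p = 0.137) and GCLM (-0.05, limma adjusted p = 0.522), which are named after their values were seen. Of 28 genes of aldehyde and carbonyl detoxification, 17 were tested, 3 rose and 1 fell, beside 16.1% and 12.3% of all tested genes. The genes that rose were the aldehyde dehydrogenases ALDH4A1 (log2 difference 0.21, limma adjusted p = 0.00513), ALDH3B2 (0.15, limma adjusted p = 0.0163) and ALDH7A1 (0.17, limma adjusted p = 0.0208, and 0.0638 without siCtrl replicate 3), and the gene that fell was AKR1A1. Without siCtrl replicate 3, 2 of these genes rose and 0 fell. With all libraries the lowest log2 difference among the tested genes of the 8 lists was that of PTGR1 (-1.10). It is set beside -1.64 for AKR1C1, -1.34 for AKR1C3 and -1.07 for AKR1C2, which were chosen for low values. Below the filter, ALDH2 of the aldehyde list was at -1.61, and at -1.28 without siCtrl replicate 3. Its means were 0.0333 FPKM with siCDK12 and 0.327 FPKM with siCtrl. GSTM2 of the NRF2 list, also below the filter, was at -1.16, with overlapping groups. Without siCtrl replicate 3 the log2 difference was -1.10 for PTGR1, beside -1.13 for AKR1C1, -0.96 for AKR1C3 and -0.98 for AKR1C2.

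**Figure D5:**
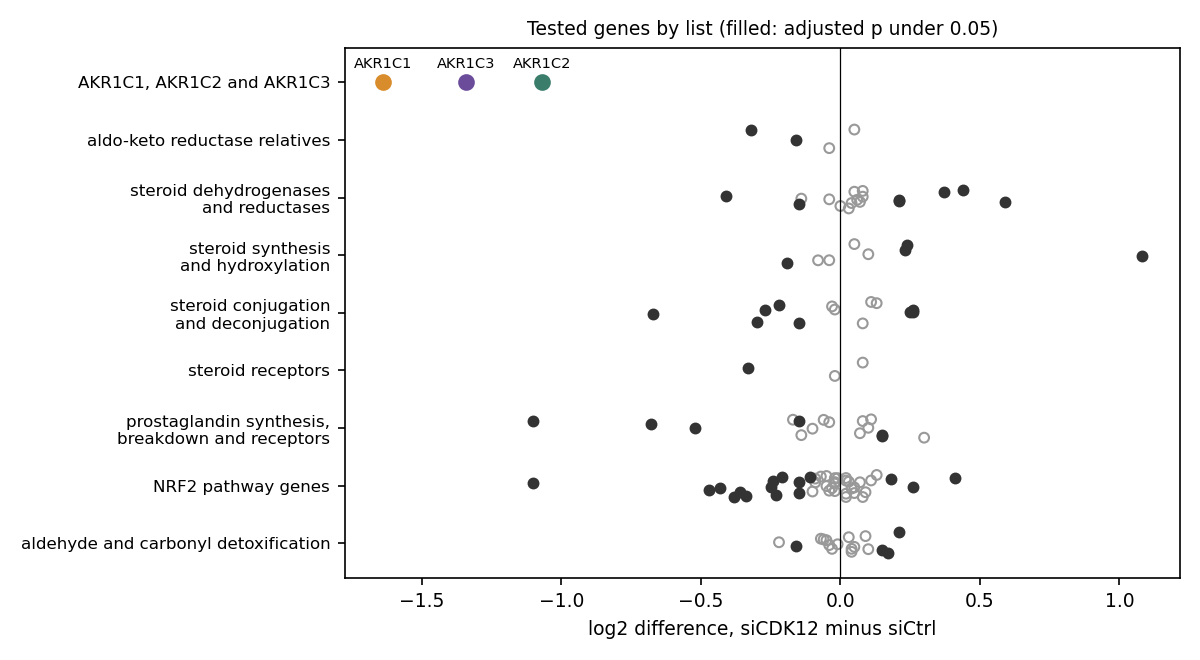
Log2 difference of siCDK12 minus siCtrl (horizontal axis) for AKR1C1, AKR1C2 and AKR1C3 (top, coloured, not tested) and for the tested genes of 8 lists of related pathways (filled, adjusted p under 0.05, open, not called). Among these tested genes of the lists the lowest is PTGR1 at -1.10, which is in 2 lists, and the highest is CYP1A1 at 1.08.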

How the data were processed

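RNA of LY2 cells, 3 siCDK12 and 3 siCtrl libraries, was sequenced as paired ends on the BGISEQ-500 platform. Per the study's methods and the submitters' processing notes, the authors cleaned reads with SOAPnuke, aligned them to GRCh38 with Bowtie2, estimated gene levels with RSEM and deposited FPKM per gene and library. RSEM divides fragments that match several transcripts by estimation. Fragment totals could not be recovered from FPKM, so the depth is unknown and no counting intervals are given. The library protocol was the sequencing company's own.

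The members and the gene lists were chosen with earlier results of these data known. Groups came from the sample labels. Genes averaging 1 FPKM or more were fitted with limma 3.58.1 (R 4.3.3) on log2(FPKM + 0.1) with a variance trend, two-sided, with Benjamini-Hochberg adjustment over 11533 genes, and called at an adjusted p under 0.05. Log2 differences on this scale understate changes of low genes. The fit was tested on simulated data. No p is given for AKR1C1, AKR1C2 and AKR1C3. SEs are those of the fit. Named genes were the members, their relatives, up to 3 called genes per list with the smallest p, the 5 nearest profiles, the neighbours within 1000000 bases and CDK12; other genes are named where the text says so or as markers. Not every gene taken by this rule is reported here. Positions and promoters came from RefSeq (GRCh38.p14; 17904 gene IDs matched) and coding sequences from GENCODE v44, which need not be the authors' transcript set. Alternatives were pseudocounts of 1 and 0.01, dropping the filter or raising it to 5 FPKM, an equal FPKM sum, median-ratio scaling, other variance estimates, a replicate block and leaving out each library. Python 3.11.15 and matplotlib 3.10.9 were used for the figures.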

Additional observations from a re-analysis of the deposited data

How the results depend on the processing

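The log2 differences of AKR1C1, AKR1C2 and AKR1C3 kept their sign under every alternative run. With a pseudocount of 1 they were -1.21, -0.99 and -1.04. Leaving out each library in turn gave -1.97 to -1.13 for AKR1C1, -1.15 to -0.98 for AKR1C2 and -1.57 to -0.96 for AKR1C3, each time with the smallest difference without siCtrl replicate 3. The log2 difference of the summed FPKM ranged from -1.41 to -1.01, and the mean share of AKR1C2 in siCtrl from 60.6% to 69.9%, against 64% with all libraries. Over all genes, leaving out a library gave 1207 to 1603 genes higher, the fewest without siCDK12 replicate 3, and 1059 to 1196 lower.

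Replicate numbers did not pair the libraries: the deviations of libraries with the same number correlated at -0.00287, 0.0197 and -0.0279 across genes. With a replicate block the log2 differences of the members were -1.64, -1.07 and -1.34, 1550 genes were higher and 1208 lower, 1 AKR relative and 0 aldehyde and carbonyl genes were called lower.

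Counts in the small lists moved by a few genes. With no filter 1 relative was lower, 3 steroid dehydrogenases and reductases were higher and 1 lower, 0 synthesis genes and 3 conjugation genes were lower. At a mean of at least 5 FPKM, 2 dehydrogenases were higher and 1 lower, 1 synthesis gene was higher, 3 conjugation and 2 aldehyde genes were lower. With no variance trend 1 relative was lower, 3 dehydrogenases were higher, and 0 synthesis and 0 aldehyde genes were lower. With median-ratio scaling 1 prostaglandin gene was higher and 2 aldehyde genes lower, and with the robust estimate 2 aldehyde genes were lower. Leaving out a library gave 1 to 2 relatives lower, 2 to 4 dehydrogenases higher and 0 to 2 lower, 2 to 3 synthesis genes higher and 0 to 1 lower, 3 to 5 conjugation genes lower, 0 to 1 prostaglandin genes higher and 3 to 4 lower, 2 to 3 NRF2 genes higher and 11 to 13 lower, and 1 to 3 aldehyde genes higher and 0 to 2 lower. Of 28 genes named with a call, AKR1A1, ALDH3B2, ALDH7A1, TSPO and the basal marker TP63 lost it in at least 1 alternative. An alternative in which a gene did not pass the filter, as for HSD11B1L, was not counted for that gene. The causes were not tested. The low level of AKR1C1 and AKR1C3, the 3 libraries per group and the near-identical sequences limit the precision of single members.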

Other observations

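Genes other than the aldo-keto reductases were also highest in siCtrl replicate 3, and most of them were near 0 elsewhere. BPIFB1, a secreted airway epithelial protein, was at 0.15 and 0.11 FPKM and listed at 0 after siCDK12, against 0.04, 0.07 and 1.61 FPKM after siCtrl. CES1, a carboxylesterase of liver and other tissues, was at 0.06, 0.03 and 0.03 FPKM with siCDK12, against 0.09, 0.03 and 0.94 FPKM with siCtrl. LDHB, the heart-type lactate dehydrogenase subunit, was listed at 0 in all siCDK12 libraries and in siCtrl replicate 1, and was at 0.1 and 0.85 FPKM in siCtrl replicates 2 and 3. LCN2, a secreted iron carrier of epithelia, was at 0.15, 0.08 and 0.08 FPKM with siCDK12, against 0.08, 0.08 and 0.83 FPKM with siCtrl. EFCAB8 and the read-through locus CKLF-CMTM1 were the other two, at 0.56 and 1.11 FPKM in siCtrl replicate 3. These genes were picked because they were high in that library, so that their values are a description of it, and none of them exceeded the 8.95 and 7.97 FPKM of AKR1C1 and AKR1C3 there.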
